A study of Mus musculus with 32 samples.

Results

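Toll-like receptors are membrane proteins that bind molecules made by microbes and start the transcription of inflammatory and antiviral genes. Tlr1, Tlr2 and Tlr6 sit at the cell surface, where Tlr2 pairs with either Tlr1 or Tlr6 to bind bacterial lipopeptides. Tlr4 binds lipopolysaccharide together with MD-2 (encoded by Ly96), and Tlr5 binds flagellin. Tlr3, Tlr7, Tlr8, Tlr9 and Tlr13 sit in endosomes, where they bind double-stranded RNA, single-stranded RNA, unmethylated CpG DNA or bacterial ribosomal RNA. Macrophages and other myeloid cells carry most members of the family, and some members are also found in epithelium and glia. The vomeronasal organ (VNO) is the pheromone-sensing organ of the nasal septum, and its lumen opens to the mucus of the nose.

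The family was followed here through 10 of its genes, Tlr1 to Tlr9 and Tlr13, among 49671 genes listed in the count tables. They were chosen by gene name and not by a rule on measured values, though with earlier results of these data known. RNA-seq had been carried out on the VNO epithelium of 32 mice, 1 library per mouse, all 42 days old. The mice came from 4 inbred strains, labelled 129S6/SVEV (129), C57/BL6 (B6), SJL/J (SJL) and SWR/J (SWR), with 4 females and 4 males of each. The study's text names the 129 mice 129Sv/J, a different substrain, and states that all strains were purchased and kept in 1 facility. No mouse carried a transgene or received a treatment by the labels. Alignment used the reference genome, which is that of B6, for every strain, and the part of this in any difference between strains was not tested.

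Between 5106398 and 18640871 reads fell on genes per library, with a median of 11461345. The tissue was checked against its markers, and the summed counts of vomeronasal sensory neuron genes such as Omp lay between 22052 and 35895 in every mouse. This sum differed between strains, with medians of 31142 in 129, 29372 in SWR, 28610 in SJL and 24799 in B6. The summed counts of olfactory sensory neuron genes lay between 4361 and 7651. The libraries of B6 female replicate 1 and 129 male replicate 1 stood apart on the fourth principal component, and leaving both out changed 1 call in the family, adding Tlr13 in SJL against 129 (log2 fold change 1.02). A panel of 244 genes chosen to represent other tissues, such as hair keratin-associated proteins and taste receptors, gave a measure of background. The study reports some taste receptors in the VNO and lists taste receptor genes among those that differed between strains. Real expression may therefore enter this measure, and its part was not tested. It was lowest in 129, with a median of 0.103 normalized counts per kilobase against 0.331 in SJL, 0.356 in SWR and 0.564 in B6.

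The order of the genes by level was read per kilobase of merged exons, because longer transcripts collect more reads. Values are normalized counts per kilobase, averaged over 32 mice, with the SD over mice. Tlr4 was the most abundant at 68.9 ± 16.3, followed by Tlr3 at 45.5 ± 5.95 and Tlr2 at 23.7 ± 4.44. These 3 genes held the same ranks in each of the 4 strains. Tlr1 followed at 10.5 ± 7.14, Tlr13 at 7.92 ± 3.33 and Tlr7 at 7.65 ± 2.91. The lowest were Tlr6 at 5.97 ± 4.44, Tlr8 at 4.62 ± 2.03, Tlr9 at 2.47 ± 1.27 and Tlr5 at 1.0 ± 0.65.

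Neighbours in this order were compared within mice by a two-sided sign-flip permutation test of their log2 differences (100000 resamples, adjusted over 9 pairs). Tlr4 exceeded Tlr3 in 29 of 32 mice, Tlr3 exceeded Tlr2 in all 32, and Tlr2 exceeded Tlr1 in 31, each with an unadjusted permutation p of 1e-05, the smallest this number of resamples can give. In the middle of the order the strains pointed opposite ways, so that the test over all mice does not describe any single strain. Tlr1 exceeded Tlr13 in 8 of 8 SJL and 8 of 8 SWR mice, but in 1 of 8 B6 and 0 of 8 129 mice (adjusted permutation p over all mice = 0.887). Tlr6 exceeded Tlr8 in the same numbers of mice of each strain (0.887). Tlr7 exceeded Tlr6 in every mouse of 129 and B6 and in 1 of 8 mice each of SJL and SWR (adjusted permutation p over all mice = 0.00198). Tlr13 and Tlr7 lay close together, with Tlr13 higher in 6 mice of 129, 3 of B6, 6 of SJL and 4 of SWR (0.887). In 129 the fourth place went to Tlr13, in B6 to Tlr7, and in SJL and SWR to Tlr1.

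**Figure D1:**
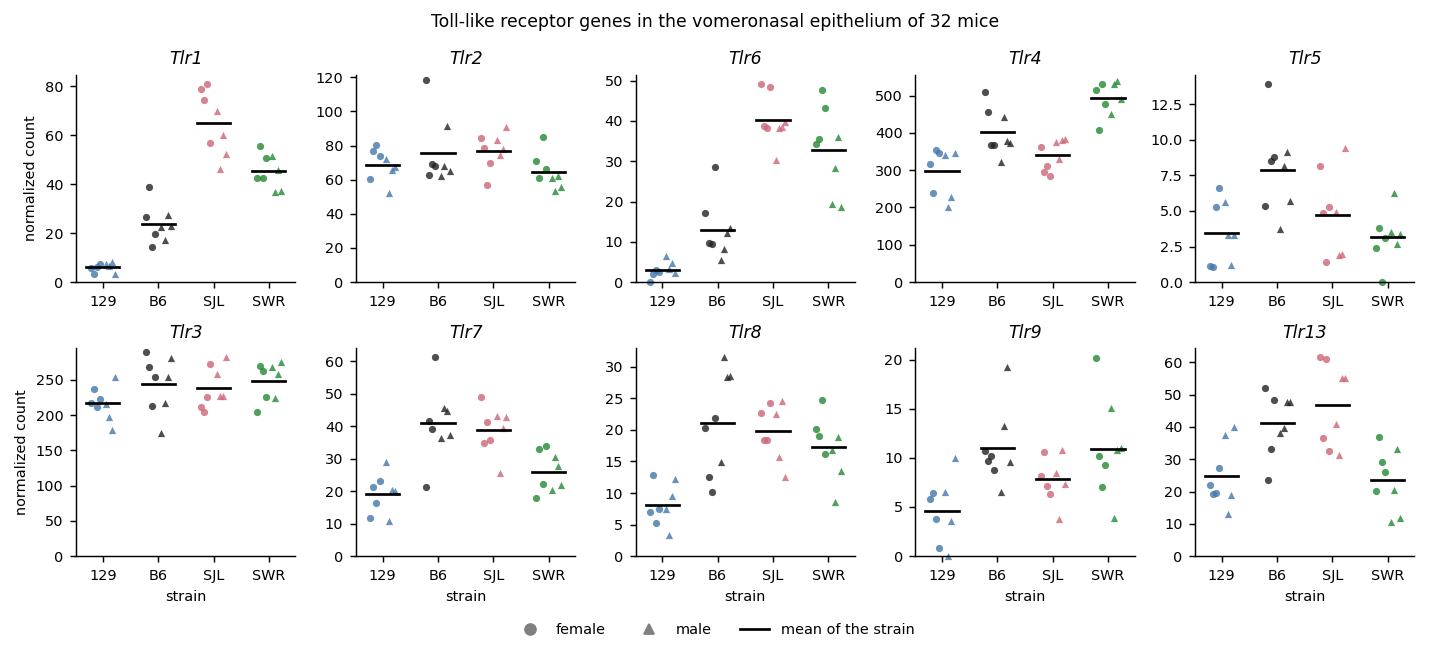
Normalized count (y axis, linear and from 0) of each of the 10 Toll-like receptor genes by strain (x axis) in 32 mice, with circles for females, triangles for males and a bar for the mean of 8 mice. The mice of 129 sit lowest for Tlr1 and Tlr6, and Tlr2 and Tlr3 lie at similar heights in all 4 strains.

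The genes of the family differed in how far strain moved them. A gene was called differentially expressed (DE) between strains with a fold change above 2 and a false discovery rate (FDR) under 0.05 in edgeR's quasi-likelihood test over all 18382 genes tested. Of the 9 members that passed the filter on low counts, 5 were DE in at least 1 of the 6 pairs of strains (Tlr1, Tlr6, Tlr7, Tlr8 and Tlr9), beside 19.8% of all genes tested. At an FDR under 0.05 with no limit on size the count was 7 of 9, beside 80.1% of all genes, so most of the transcriptome passed that looser limit. Tlr5 did not pass the filter on low counts and was not tested. Tlr2 and Tlr3 did not reach an FDR under 0.05 in any pair of strains.

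All DE calls against 129 pointed the same way, to lower levels in 129. In B6 against 129, 5 of 9 members were called, beside 11.1% of all genes tested in either direction and 8.72% higher in B6. In SJL against 129 the count was 4 of 9, beside 8.38% (5.61% higher in SJL), and in SWR against 129 it was 4 of 9, beside 7.73% (4.62% higher in SWR). The median log2 fold change (LFC) of the 9 members was 1.07, 0.90 and 0.72 in these comparisons, where the median of all genes tested lay at 0.02, -0.01 and -0.01. Among the other pairs, 2 members were called higher in SJL than in B6 (background 7.99%, and 2.67% higher in SJL), 1 in SWR than in B6 (8.05%, and 2.52% higher in SWR), and none between SWR and SJL (4.5%). For SWR and SJL, 5 members had an unadjusted p under 0.05 in the edgeR fit and DESeq2 called 0. The ranges of the 8 and 8 mice did not overlap for 1 member in B6 against 129 (14.4% of all genes tested), 2 in SJL against 129 (11.9%), 3 in SWR against 129 (13.5%), 2 in SJL against B6 (13.1%), 0 in SWR against B6 (12.5%) and 1 in SWR against SJL (10.2%). These comparisons share the mice of each strain and are not independent.

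**Figure D2:**
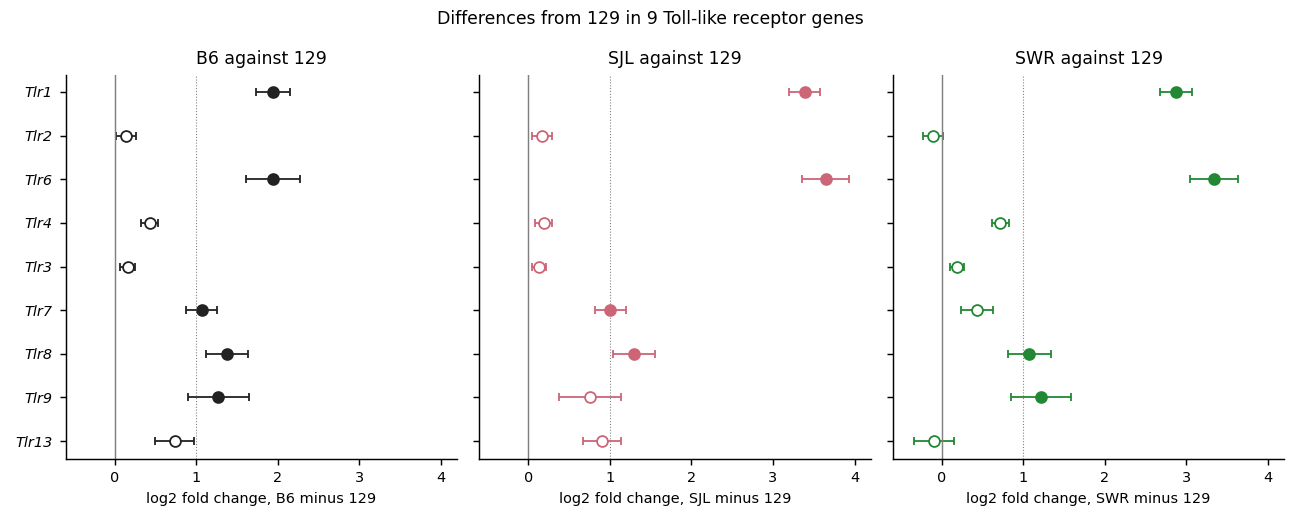
LFC (x axis) of the 9 tested genes (y axis) in B6, SJL and SWR, each against 129, with error bars of 1 SE; filled points are DE, open points are not, the solid line marks no change and the dotted line an LFC of 1. Tlr1 and Tlr6 lie farthest to the right in every panel, between 1.94 and 3.65.

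Macrophage markers also differed between these strains, and their values belong beside each of the following results. The summed normalized counts of 14 macrophage markers, among them Csf1r, Adgre1 and the C1q genes, ranged from 1025 to 1490 in 129, from 2099 to 2961 in B6, from 2052 to 2641 in SJL and from 1477 to 1954 in SWR. Of the 14 markers tested, 8 were DE and higher in B6 than in 129, 7 were higher in SJL, and 3 were higher and 1 lower in SWR. In whole epithelium, fewer macrophages and less RNA per macrophage cannot be told apart. Each receptor was therefore also expressed as a percentage of the macrophage marker sum of the same mouse, as a description. Markers of other immune cells moved as well, though not all in the same direction. The summed counts of 7 T lymphocyte markers had medians of 12.0 in 129, 31.4 in SWR, 37.0 in SJL and 43.5 in B6, and 1 of the 7 passed the filter. That gene, Cd4, was DE and higher in B6 (LFC 2.0), SJL (1.87) and SWR (1.73) than in 129. The summed counts of 6 B lymphocyte markers had medians of 32.1 in 129, 62.6 in SWR, 70.1 in B6 and 73.6 in SJL. Of the 3 tested, 2 were DE and higher in B6, 0 in SJL and 1 in SWR than in 129. Of 3 tested markers of conventional dendritic cells, 2 were DE and higher in B6, 0 in SJL and 2 in SWR than in 129. In each of these comparisons 1 of the 3 was lower at an FDR under 0.05. Their summed counts had the highest median in 129, at 806, against 713 to 738 in the other strains. Of 2 tested markers of plasmacytoid dendritic cells, 1 was DE and higher in B6, and 1 was DE and lower in both B6 and SWR. Of 4 tested neutrophil markers, 1 was DE and higher in B6, 1 in SJL and 0 in SWR. The part of these cells in the differences between strains was not tested.

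Tlr1 showed the widest range between strains along with Tlr6. Normalized counts of Tlr1 ran from 3.20 through a median of 6.28 to 8.34 in 129, from 14.5 through 22.6 to 38.9 in B6, from 46.3 through 65.0 to 80.9 in SJL and from 36.9 through 44.3 to 55.8 in SWR. Every mouse of the other 3 strains exceeded every 129 mouse, and every SJL mouse exceeded every B6 mouse. SWR overlapped both B6 and SJL at the edges of its range. The level was 3.85-fold higher in B6 than in 129 (LFC 1.95 ± 0.21 SE, FDR = 1.48e-09), 10.5-fold higher in SJL (LFC 3.39 ± 0.19, FDR = 1.85e-16) and 7.33-fold higher in SWR (LFC 2.87 ± 0.19, FDR = 2.34e-14). SJL exceeded B6 by 2.72-fold (LFC 1.44 ± 0.16, FDR = 4.78e-09). SWR lay above B6 by an LFC of 0.93 ± 0.16 and below SJL by an LFC of -0.52 ± 0.15, both with an FDR under 0.05 but under the 2-fold limit. The raw evidence in 129 was thin, at 3 to 9 reads per mouse and 49 reads over 8 mice, against 559 reads in SJL.

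Tlr6, which like Tlr1 forms a heterodimer with Tlr2, followed the same order of strains. Its normalized counts ran from 0 through a median of 2.73 to 6.55 in 129, from 5.59 through 10.9 to 28.5 in B6, from 30.4 through 38.5 to 49.1 in SJL and from 18.6 through 34.9 to 47.8 in SWR. All SJL and SWR mice exceeded all 129 mice, and all SJL mice exceeded all B6 mice, while 129 and B6 overlapped in 1 of 64 pairings of mice. Tlr6 was 3.84-fold higher in B6 than in 129 (LFC 1.94 ± 0.33, FDR = 8.72e-06), 12.5-fold higher in SJL (LFC 3.65 ± 0.29, FDR = 1.49e-12) and 10.1-fold higher in SWR (LFC 3.34 ± 0.29, FDR = 1.73e-11). It was also 3.26-fold higher in SJL than in B6 (FDR = 4.21e-07) and 2.63-fold higher in SWR than in B6 (FDR = 1.58e-05). SWR and SJL did not differ beyond the spread between mice (LFC -0.31 ± 0.21, FDR = 0.278). One 129 female had no Tlr6 read at all, and the 8 mice of 129 together held 25.

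Across strains, Tlr1 and Tlr6 thus rose in the same order, from 129 through B6 and SWR to SJL. Per kilobase of exon, Tlr1 exceeded Tlr6 in 8 of 8 mice in 129, in 7 of 8 in B6, in 8 of 8 in SJL and in 7 of 8 in SWR. On the same scale, mean Tlr1 was 2.20 times mean Tlr6 in 129, 2.03 times in B6, 1.80 times in SJL and 1.54 times in SWR.

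**Figure D3:**
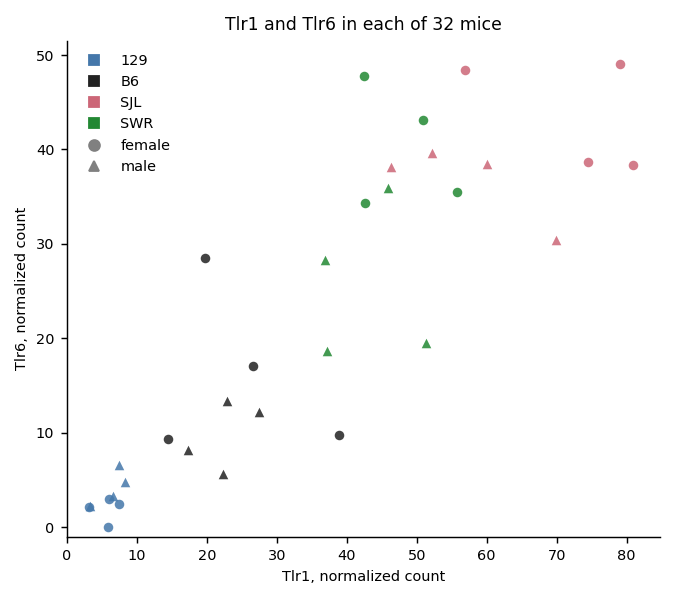
Tlr6 against Tlr1 in normalized counts (both axes linear), 1 point per mouse, coloured by strain, with circles for females and triangles for males. The 129 mice gather near the origin, B6 lies between, and SJL and SWR occupy the upper right, at 36.9 or more for Tlr1 and 18.6 or more for Tlr6.

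The 2 genes are neighbours on chromosome 5 and are transcribed in the same direction. In GRCm38, Tlr1 spans chr5:64924679-64933563 and Tlr6 spans chr5:64952031-64960097, both on the minus strand, with 18467 bases between them. Their longest open reading frames of 2388 and 2421 bases were 72.9% identical in a global alignment, the most alike of all pairs in the family. Tlr7 and Tlr8, a second adjacent pair 40599 bases apart on the X chromosome, were next at 53.2%. The longest stretch that transcripts of Tlr1 and Tlr6 share without a mismatch was 229 bases, and 5.80% of the windows of one read length in Tlr1 and 5.21% of those of Tlr6 occurred in the other gene. The authors sequenced read pairs and counted only those placed uniquely, so read pairs that fall wholly inside the shared stretch were not counted for either gene. In addition, 15.4% of the 50-base windows of Tlr1 occurred in another gene, 158 other genes in all. Of the remaining 8 members, Tlr4 shared 1 window with another gene and the others shared none.

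Within 500 kb of Tlr1 and Tlr6, 33 other genes were listed and 11 were tested. Of these, 1 was DE in any pair of strains, beside 19.8% of all genes tested. It was Gm20033, a gene model, and it moved the other way, with LFCs of -1.10 in B6, -1.06 in SJL and -1.08 in SWR against 129. Fam114a1, a tested neighbour, had an LFC of 0.83 in SJL against 129 (FDR = 1.27e-05), under the 2-fold limit. Klf3, Wdr19, Lias and Ugdh stayed within 0.1 of 0 in that comparison on the LFC scale.

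The sequences just upstream of the starts of these neighbours are shown because the genes moved together between strains. They are the 250 bases before each start that RefSeq lists for GRCm38.p6, written from 5′ to 3′ on the gene's own strand. Each gene has 2 listed starts. Capitals mark GAGGAAG, the core of the site of PU.1, a transcription factor of macrophages, searched on both strands (reverse complement CTTCCTC).
Tlr1, chr5:64933559-64933808, minus strand: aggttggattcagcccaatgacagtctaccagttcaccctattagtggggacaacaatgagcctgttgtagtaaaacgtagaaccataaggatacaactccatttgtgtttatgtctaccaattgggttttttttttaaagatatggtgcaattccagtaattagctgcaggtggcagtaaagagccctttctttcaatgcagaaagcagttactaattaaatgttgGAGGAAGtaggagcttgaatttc
Tlr1, chr5:64932700-64932949, minus strand: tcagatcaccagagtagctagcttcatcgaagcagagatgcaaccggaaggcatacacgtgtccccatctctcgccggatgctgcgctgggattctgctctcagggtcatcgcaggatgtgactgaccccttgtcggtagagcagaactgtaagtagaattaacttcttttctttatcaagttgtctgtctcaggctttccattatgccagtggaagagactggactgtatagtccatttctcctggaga
Tlr6, chr5:64960049-64960298, minus strand: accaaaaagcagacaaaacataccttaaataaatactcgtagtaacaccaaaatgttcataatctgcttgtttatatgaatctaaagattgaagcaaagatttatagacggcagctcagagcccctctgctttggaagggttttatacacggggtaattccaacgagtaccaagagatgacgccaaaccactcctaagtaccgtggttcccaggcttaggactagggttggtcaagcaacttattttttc
Tlr6, chr5:64959167-64959416, minus strand: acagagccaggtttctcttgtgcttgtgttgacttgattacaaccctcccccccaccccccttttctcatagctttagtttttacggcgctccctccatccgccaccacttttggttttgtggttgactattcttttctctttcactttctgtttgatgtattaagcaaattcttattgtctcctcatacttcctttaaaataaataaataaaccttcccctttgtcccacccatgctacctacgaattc
The motif was found once, before the upstream start of Tlr1, and was absent from these windows of Tlr6. Across the family, 8 members had at least 1 listed promoter, and 3 of their 10 promoters held the motif, those of Tlr1, Tlr9 and Tlr13. Tlr4 and Tlr7 were not in the table. Among all 32851 promoters searched over the same length, 10.6% held it. The B6 reference sequence is printed, and the sequences of the other strains were not analysed here.

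Tlr7, Tlr8 and Tlr13 are X-linked endosomal receptors of RNA. Tlr7 had normalized counts of 10.9, 20.1 and 29.0 (lowest, median and highest) in 129, of 21.3, 40.4 and 61.4 in B6, of 25.7, 40.3 and 49.1 in SJL and of 17.8, 25.0 and 33.9 in SWR. The ranges overlapped in all pairs of strains, with 129 lowest and SWR next. Tlr7 was DE and 2.09-fold higher in B6 than in 129 (LFC 1.07 ± 0.19, FDR = 2.32e-05) and 2.01-fold higher in SJL (LFC 1.01 ± 0.19, FDR = 6.4e-05). Both calls lay close to the 2-fold limit. The second fell below it when any of 7 single libraries was left out, with LFCs down to 0.93. The first did so without 129 female replicate 1, 129 male replicate 2 or B6 female replicate 4, with LFCs down to 0.97.

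Tlr8, a receptor of single-stranded RNA, had normalized counts of 3.28, 7.45 and 12.8 in 129, of 10.2, 21.1 and 31.5 in B6, of 12.5, 20.5 and 24.6 in SJL and of 8.63, 17.9 and 24.8 in SWR. The other 3 strains lay at similar heights above 129, each overlapping it in a few mice. It was 2.60-fold higher in B6 than in 129 (LFC 1.38 ± 0.26, FDR = 4.57e-05), 2.45-fold higher in SJL (LFC 1.29 ± 0.26, FDR = 0.000134) and 2.11-fold higher in SWR (LFC 1.08 ± 0.26, FDR = 0.0012). The SWR call fell under the 2-fold limit without 129 female replicate 3, 129 male replicate 2 or SWR female replicate 3, the lowest LFC being 0.97.

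Tlr13, the receptor of bacterial ribosomal RNA, split the strains differently. Its normalized counts were 13.1, 20.8 and 39.9 in 129, 23.6, 43.7 and 52.2 in B6, 31.3, 48.1 and 61.8 in SJL and 10.6, 23.3 and 36.8 in SWR. B6 and SJL lay above 129 and SWR, with overlap in every pair. The LFC was 0.74 ± 0.24 in B6 and 0.90 ± 0.23 in SJL against 129, and -0.09 ± 0.24 in SWR against 129 (FDR = 0.793). SWR lay below SJL by an LFC of -0.997 ± 0.23 (FDR = 0.000975), just short of the 2-fold limit, and 11 of the 32 fits with 1 library left out carried it past that limit, to as low as -1.10.

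Tlr9, the receptor of unmethylated CpG DNA, was scarce. Normalized counts were 0, 4.78 and 9.96 in 129, 6.52, 9.98 and 19.3 in B6, 3.75, 7.74 and 10.8 in SJL and 3.92, 10.5 and 20.1 in SWR. No mouse had more than 19 Tlr9 reads, and all strains overlapped. It was DE in B6 against 129 (LFC 1.27 ± 0.37, FDR = 0.00451) and in SWR against 129 (LFC 1.22 ± 0.37, FDR = 0.00736), and did not pass in SJL (LFC 0.76 ± 0.38, FDR = 0.117), where it did without 129 male replicate 4 (LFC 1.01, FDR = 0.0427). Whether SJL differed from B6 was not detectable at this depth (LFC -0.51 ± 0.34, FDR = 0.226).

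Expressed as a percentage of the macrophage marker sum of the same mouse, the receptors differed in how their strains compared. Tlr7 gave 1.63 ± 0.444% (SD, n = 8) in 129, 1.63 ± 0.445% in B6, 1.58 ± 0.446% in SWR and 1.69 ± 0.245% in SJL. For this gene the strain means lay well inside the SD over mice. In the same order of strains, Tlr8 gave 0.691 ± 0.264%, 0.821 ± 0.278%, 1.03 ± 0.262% and 0.871 ± 0.201%. Tlr13 gave 2.06 ± 0.513%, 1.62 ± 0.283%, 1.41 ± 0.552% and 2.03 ± 0.494%. Tlr9 gave 0.375 ± 0.237%, 0.429 ± 0.117%, 0.643 ± 0.245% and 0.341 ± 0.106%, so that on this scale its mean in SJL lay below that in 129, within the SD over mice. Tlr1 kept its order of strains on this scale, at 0.528 ± 0.185% in 129, 0.959 ± 0.394% in B6, 2.73 ± 0.411% in SWR and 2.83 ± 0.555% in SJL. Tlr6 did so with SWR above SJL, at 0.258 ± 0.149%, 0.505 ± 0.257%, 1.98 ± 0.664% and 1.74 ± 0.190% in the same sequence. In that sequence Tlr2 gave 5.97 ± 1.19%, 2.98 ± 0.643%, 3.87 ± 0.622% and 3.35 ± 0.441%. Tlr3 gave 18.8 ± 2.49%, 9.68 ± 1.63%, 15.0 ± 2.27% and 10.4 ± 1.35%. The means of Tlr2 and Tlr3 on this scale were thus highest in 129. Tlr4 gave 25.6 ± 5.77%, 16.1 ± 3.20%, 29.8 ± 4.28% and 14.9 ± 2.06%. Tlr5 gave 0.296 ± 0.200%, 0.318 ± 0.153%, 0.191 ± 0.112% and 0.199 ± 0.111%.

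**Figure D4:**
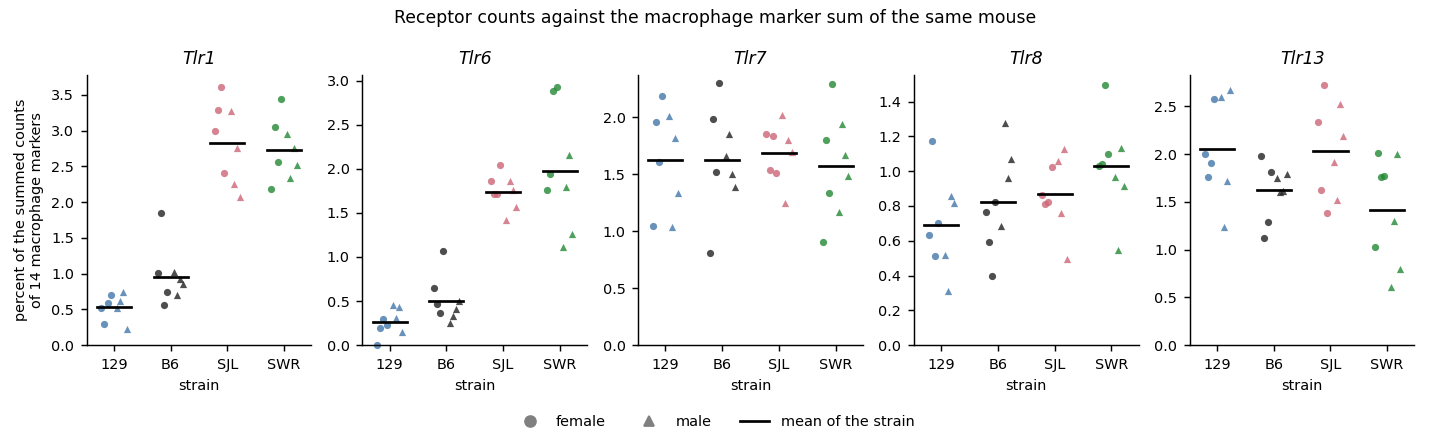
Normalized count of 5 receptors as a percentage of the summed normalized counts of 14 macrophage markers in the same mouse (y axis, linear and from 0) by strain (x axis), with circles for females, triangles for males and bars for the mean of 8 mice. Tlr7 has strain means of 1.58% to 1.69%, whereas Tlr1 and Tlr6 remain higher in SJL and SWR.

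The log2 macrophage marker sum was also entered into the fit as an added term. Because 129 lay below nearly all other mice in that sum, the term is almost confounded with that strain and the remaining LFCs have wide errors. Tlr1 stayed DE in B6, SJL and SWR against 129, with LFCs of 2.03, 3.47 and 2.91 in that fit. Tlr6 stayed DE in SJL (LFC 2.59) and SWR (LFC 2.79) and not in B6 (LFC 0.72, FDR = 0.585). The calls of Tlr7, Tlr8 and Tlr9 against 129 were all lost, with LFCs of 0.49 and 0.50 for Tlr7, of 0.00, 0.11 and 0.45 for Tlr8 and of -1.30 and 0.07 for Tlr9. In the fit with the background panel as an added term, the LFC of Tlr7 fell to 0.49 in B6 and 0.68 in SJL against 129. Whether background or cell content produced the differences was not tested.

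Tlr4, the most abundant member, was highest in SWR. Its normalized counts were 202, 330 and 355 (lowest, median and highest) in 129, 322, 376 and 509 in B6, 284, 346 and 383 in SJL and 408, 502 and 540 in SWR. Every SWR mouse exceeded every 129 and every SJL mouse. The LFC of SWR was 0.72 ± 0.10 against 129 (FDR = 7.25e-07), 0.53 ± 0.10 against SJL (FDR = 0.000108) and 0.29 ± 0.10 against B6 (FDR = 0.0233), all under the 2-fold limit. B6 exceeded 129 by an LFC of 0.43 ± 0.11 (FDR = 0.000893).

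The genes whose products work with these receptors were taken, together with Tlr11 and Tlr12, from lists of 69 genes, of which 56 passed the filter. Of these, 12 were DE in at least 1 pair of strains (21.4%), close to the 19.8% of all genes tested. The count was 13 to 17 with 1 library left out, where the filter was applied anew, and 8 to 20 in the other alternatives. For those fits no share of all genes tested is given. The calls were unevenly spread over roles. All 6 co-receptor genes were called (Cd14, Ly96, Cd180, Ly86, Lbp and Cd36), against 0 of 5 adaptors, 0 of 10 kinases and 0 of 7 ubiquitin ligases and their partners. At an FDR under 0.05 with no limit on size, 4 adaptors, 6 kinases and 6 ubiquitin ligases or partners passed in some pair.

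Ly96 encodes MD-2, the subunit that holds lipopolysaccharide on Tlr4. Its normalized counts were 80.2, 88.6 and 120 (lowest, median and highest) in 129, 74.2, 91.2 and 118 in B6, 15.6, 34.0 and 36.9 in SJL and 10.7, 22.2 and 30.8 in SWR. All mice of 129 and B6 exceeded all mice of SJL and SWR. Ly96 was 4.21-fold lower in SWR than in 129 (LFC -2.07 ± 0.16, FDR = 1.47e-12). SWR thus held the highest Tlr4 and the lowest mean Ly96 of the 4 strains.

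Cd14, which hands lipopolysaccharide to the Tlr4 complex, was highest in B6. Its normalized counts were 30.6, 48.3 and 89.8 in 129, 96.0, 156 and 197 in B6, 34.8, 52.6 and 80.9 in SJL and 94.8, 106 and 129 in SWR. B6 and SWR lay above 129 and SJL with no overlap, and B6 exceeded 129 by 2.92-fold (LFC 1.55 ± 0.17, FDR = 3.62e-09). Lbp, the secreted carrier of lipopolysaccharide, was highest in SJL at 904 to 1104, against 121 to 434 in B6, and differed 4.84-fold between them (LFC 2.27 ± 0.18, FDR = 9.66e-13). Ly86 encodes MD-1, the partner of the Tlr4-like protein CD180. It ran from 44.4 to 69.0 in B6 and from 9.30 to 24.0 in 129, a 4.31-fold difference (LFC 2.11 ± 0.21, FDR = 3.09e-10). Cd36, a lipid scavenger receptor that works with Tlr2 and Tlr6, varied widely within strains, from 9.59 to 74.0 in B6 and from 0.749 to 9.36 in 129 (LFC 2.57 ± 0.53, FDR = 0.000134).

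**Figure D5:**
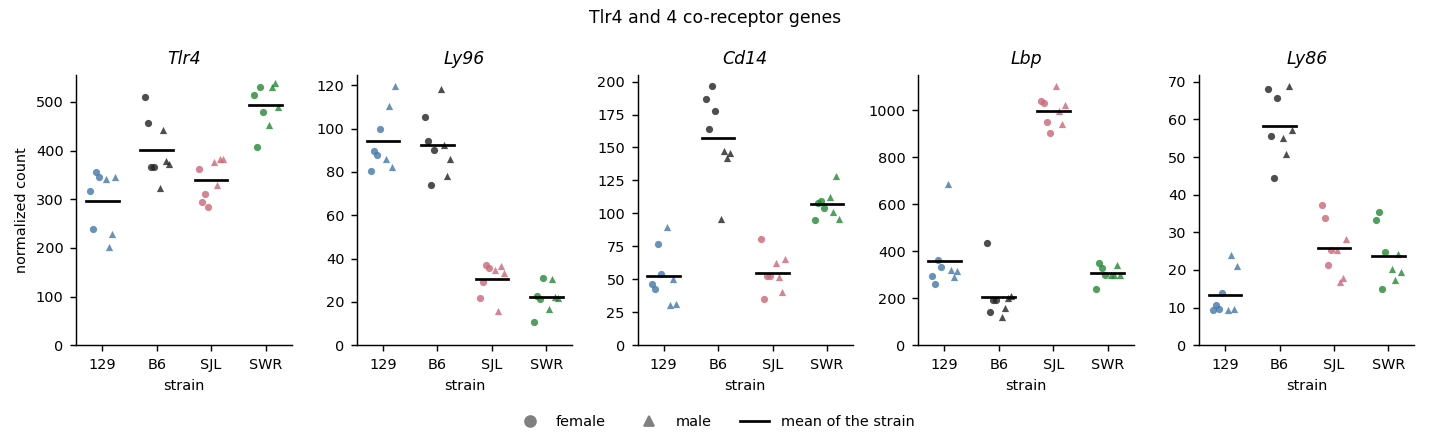
Normalized count (y axis, linear and from 0) of Tlr4 and of the co-receptor genes Ly96, Cd14, Lbp and Ly86 by strain (x axis) in 32 mice, with circles for females, triangles for males and bars for the mean of 8 mice. Each gene has another strain pattern: Ly96 is at 74.2 or more in 129 and B6 and at 36.9 or less in SJL and SWR, and Lbp is highest in SJL.

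Of 8 trafficking and processing genes, 2 were called. Ctss, a cathepsin that cleaves endosomal receptors, ran from 116 to 216 in 129 and from 397 to 632 in B6 without overlap (LFC 1.55 ± 0.11, FDR = 3.67e-14). Pld4, an exonuclease of endosomes that removes Tlr9 ligands, was 2.23-fold higher in B6 than in 129 (LFC 1.16 ± 0.17, FDR = 6.3e-07). Both are also genes of macrophages, and the macrophage marker sum was higher in B6 than in 129 too. In SJL and SWR the mean sum was 2300 and 1672, mean Ctss was 332 and 342, and mean Pld4 was 58.3 and 51.6. The part of macrophages in these calls was not tested. Among 7 inhibitors only Il1rl1 was called (LFC 1.14 ± 0.28 in SJL against 129, FDR = 0.00164), and among 10 transcription factors only Irf7, which acts downstream of Tlr7 and Tlr9 (LFC 1.35 ± 0.25 in B6 against 129, FDR = 3.25e-05).

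The cytokines and enzymes that Toll-like receptor signals induce were mostly below the filter, with 3 of 13 tested. Tnf was called in B6 against 129 (LFC 2.42 ± 0.45, FDR = 3.23e-05) from low values of 0 to 5.25 in 129 and 5.59 to 29.8 in B6. Ptgs2, the inducible cyclooxygenase, ran from 7.15 to 36.0 in 129 and from 32.6 to 81.2 in B6 (LFC 1.55 ± 0.24, FDR = 2.4e-06). In the fit with the macrophage term, none of the calls named here for Cd14, Cd36, Ly86, Ctss, Pld4, Irf7, Tnf, Ptgs2 and Il1rl1 against 129 held, while Ly96 (SWR against 129) and Lbp (SJL against B6) stayed DE.

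No member was DE between the sexes. With strain as a term, 0 of 9 members were DE between males and females at a fold change above 2 and an FDR under 0.01, beside 0.0381% of all genes tested. No member had an unadjusted p under 0.05 in the edgeR fit, and DESeq2 called 0. The LFC of males minus females lay closest to the threshold for Tlr6 at -0.35 ± 0.18 (FDR = 0.562) and for Tlr1 at -0.18 ± 0.12 (FDR = 0.709). The X-linked members had LFCs of -0.01 ± 0.13 (Tlr7), 0.02 ± 0.18 (Tlr8) and -0.04 ± 0.16 (Tlr13). Differences of the size of these SEs were not detectable at this depth.

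Within single strains, with 4 females and 4 males each, 0 of 9 members were DE between the sexes in SWR (background 0.0816%), SJL (0.0544%), B6 (0.0544%) and 129 (0.0381%). The count at an unadjusted p under 0.05 was 0 in 129, 1 in B6 (Tlr8, LFC 0.72 ± 0.32), 0 in SJL and 1 in SWR (Tlr6, LFC -0.67 ± 0.28), and DESeq2 called 0 in each. The interaction of sex and strain was called for 0 of 9 members, beside 0.0163% of all genes tested, with 0 at an unadjusted p under 0.05 and 0 by DESeq2.

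Tlr2 and Tlr3 moved least. Tlr2, the shared partner of Tlr1 and Tlr6, had strain medians of 61.6 in SWR, 68.1 in B6, 69.8 in 129 and 78.0 in SJL, within ranges that overlapped everywhere. Its largest difference was that of SWR against SJL (LFC -0.27 ± 0.12, FDR = 0.084). Tlr3, the receptor of double-stranded RNA, had medians of 217 in 129, 227 in SJL, 255 in B6 and 260 in SWR, and its largest difference was that of SWR against 129 (LFC 0.19 ± 0.09, FDR = 0.092). An antisense gene model, Gm45542, overlaps Tlr3, and the authors' counts were made by strand. Tlr5 had 0 to 10 reads per mouse and means of 3.15 normalized counts in SWR, 3.43 in 129, 4.74 in SJL and 7.90 in B6. Its median level was 4.73 times the background panel per kilobase in 129, 2.41 times in B6, 2.91 times in SJL and 1.89 times in SWR. This was the lowest multiple of the 10 genes in each strain. DESeq2, which keeps more low genes, called Tlr5 higher in B6 than in 129 (LFC 1.11) and lower in SWR than in B6 (LFC -1.28). The remaining mouse genes of the family, Tlr11 and Tlr12, which bind protozoan profilin, did not pass the filter and were not ranked. Mean normalized counts of Tlr11 were 1.32 in 129 and 4.98 in B6, and those of Tlr12 were 0.975 and 5.91, with at most 9 reads in any mouse. The background panel was also higher in B6, with a median of 0.564 per kilobase against 0.103 in 129. Differences in Tlr11 and Tlr12 between strains were not tested.

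For each tested member, the 3 genes that followed it most closely from mouse to mouse within the 8 groups of strain and sex were named, by Pearson's r of centred log2 values over 32 mice. For Tlr1 these were Rabepk (r = 0.69), Plekhg4 (0.68) and Ccdc146 (0.64), and for Tlr6 they were Gm37509 (0.68), Gm32742 (0.68) and Il18rap (0.67). Neither gene was among the closest of the other. Between the 2 genes r was 0.09, where the median over all genes tested was -0.013 for Tlr1 and -0.002 for Tlr6. Tlr13 was nearest to Fli1 (0.77), Vmp1 (0.77) and Stk17b (0.76), Tlr7 to Gm15892 (0.80), Ifi214 (0.75) and Duox2 (0.75), and Tlr8 to Il1rap (0.71), Rarres1 (0.66) and Ust (0.65). Tlr2 was nearest to Gm12009 (0.82), Eri3 (0.81) and Smc4 (0.78), and Tlr4 to Gnai3 (0.81), 4930523C07Rik (0.80) and BC064078 (0.79). Tlr3 was nearest to Ms4a4a (0.71), Reep3 (0.70) and Apaf1 (0.70), and Tlr9 to 4933413G19Rik (0.71), Frmd6 (0.71) and Rarres1 (0.69). These are the highest of 18381 values each, over mice that share depth and dissection. Between members, the highest value was that of Tlr8 with Tlr9 (r = 0.60), followed by Tlr4 with Tlr13 (0.53). Low counts limit several of these values. No mouse had over 19 reads of Tlr9, and no 129 mouse had over 12 of Tlr8. Over the 8 mice of 129, Tlr1 had 49 reads and Tlr6 had 25.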

How the data were processed

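RNA-seq was performed by the authors on ribo-depleted, stranded libraries of VNO epithelium. Per the labels and the study's methods, reads were trimmed with Trim Galore, aligned to GRCm38 (mm10) with STAR and assigned to Ensembl gene models. The deposited raw counts are uniquely placed reads on the gene's strand. The authors also deposited normalized values, a signal equal to those counts divided by a DESeq2 size factor for each library, which held for every library here. No column was left unmapped (0).

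The members and gene lists were chosen with earlier results of these data known. Counts were fitted with edgeR 4.0.16 (R 4.3.3, TMM scaling, quasi-likelihood test), after its filter on low counts, over 18382 genes, with strain and sex as terms for strains and for sex, and with 8 groups of strain and sex for sex within strains and for the interaction. FDR is the Benjamini-Hochberg adjusted p, and the SE is the LFC divided by the root of its F statistic. Calls needed an LFC beyond 1 in either direction together with an FDR under 0.05 (0.01 for sex over all strains). The fits were tested on simulated data. Means, SDs and ranges are over normalized counts. Levels between genes were divided by merged exon length in GENCODE M21 annotation, with an offset of 0.5 per kilobase on the log2 scale for the test of order. Named genes were all 10 members, the pathway genes called in at least 1 pair of strains (at most 5 per list by absolute LFC), and the 3 genes most correlated with each tested member on log2(normalized count + 1). The neighbours of Tlr1 and Tlr6 named individually were chosen after their values were seen. DESeq2 1.42.0 was an alternative. Others were its size factors, no filter, the replicate number as a block, the background panel or the macrophage marker sum as a term, and each library left out in turn. Leaving out both libraries that stood apart was chosen after seeing the data.

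Each library is 1 mouse, so p-values measure the spread between mice. Replicate numbers are in accession order within a group and coincide with the number that opens each library's index label. Libraries of a group differed by more than sampling noise in all 48 pairs. No mouse had over 19 reads of Tlr5 or Tlr9, of Tlr1 or Tlr8 in 129, or of Tlr6 in 129 or B6.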

Additional observations from a re-analysis of the deposited data

Results flagged for a closer look

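Of 80 sets of 4 mice (10 genes in 8 groups of strain and sex), 3 held a mouse whose normalized count lay far from the other 3 by Dixon's criterion. Chance alone flags about 1 such set in 20. B6 female replicate 1 had 118 normalized counts of Tlr2, where the other 3 B6 females lay between 62.5 and 69.1. This library also stood apart on the fourth principal component. SJL male replicate 1 had 30.4 normalized counts of Tlr6, where the other SJL males lay between 38.2 and 39.7. SJL male replicate 2 had 329 normalized counts of Tlr4, where the other SJL males lay between 376 and 383. The interaction of sex and strain was called for 0 of 9 members in the edgeR fit, with 0 at an unadjusted p under 0.05 and 0 by DESeq2.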

How the results depend on the processing

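The calls of Tlr1 and Tlr6 in SJL and SWR against 129 and in SJL against B6 held in every alternative and in all 32 fits with 1 library left out, with LFCs from 2.59 to 3.95 for Tlr6 in SJL against 129 and from 3.22 to 3.47 for Tlr1. With the macrophage marker sum as an added term, the number of members called in any pair of strains fell from 5 to 3, with 1 in B6, 2 in SJL and 2 in SWR against 129, and rose from 0 to 1 between SWR and SJL (Tlr9). In the same fit the direction turned, without a call, for Tlr9 in B6 against 129 (LFC -1.30), Cd36 in B6 against 129 (-0.59), Pld4 in B6 against 129 (-0.37) and Il1rl1 in SJL against 129 (-0.42). With the background panel as a term, 2 members were called in SWR against B6 (1 otherwise) and 1 in SWR against SJL (0 otherwise). DESeq2 and the fit with no filter each called 2 in SWR against B6, adding Tlr5. Each also called 20 pathway genes, since both test more low genes. That count was 12 in the fit used above, and 13 to 17 with 1 library left out. In those fits the filter on low counts was applied anew to the remaining mice, so the set of genes tested can differ. With 1 library left out, the count was 3 to 6 in SJL against 129 (4 otherwise), 1 to 2 in SWR against B6 (2 without B6 female replicate 2, by Tlr1) and 0 to 1 in SWR against SJL (by Tlr13). The sex difference of X-linked members lay near 0 and changed sign. For Tlr7 the LFC was 0.0033 with no filter, 0.0316 with the background term and -0.0642 to 0.0437 with 1 library left out. For Tlr8 it was -0.0552 to 0.0814, and for Tlr13 -0.0968 to 0.0177, with 1 library left out. With the replicate number as a block, which gave no sign of pairing the mice (mean r of deviations -0.003 over 112 same-numbered pairs, and 9 of 32 libraries correlated best with their own number), the number of members called in any pair of strains was 5, as without the block, and the LFC of Tlr7 between the sexes was 0.0031. The order per kilobase kept 8 of 10 ranks when the median replaced the mean, exchanging Tlr7 and Tlr13. Depth limits Tlr5, Tlr9, Tlr1 and Tlr8 in 129, and Tlr6 in 129 and B6, each with at most 19 reads per mouse.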
